A study of Mus musculus with 4 samples.

Results

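The genes of histone cluster 1 are described here across the cell types of fetal mice that lack Cyp27a1. They are the 54 genes of the count matrix, of 31053 in all, whose symbol begins with Hist1h. By the letters after that stem, 6 encode linker histone H1 and 48 encode core histones: 13 H2A, 15 H2B, 9 H3 and 11 H4. All 54 lie on chromosome 13, in 4 blocks of the GRCm38 genome that hold 18, 5, 29 and 2 of them.

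Core histones form the spool around which DNA is wound in the nucleosome, and H1 binds the DNA that enters and leaves it. Cluster 1 genes are replication-dependent: they are transcribed mainly in S phase, when new chromatin needs histones, and their mRNAs usually end in a short stem loop rather than in a poly(A) tail. Slbp binds that stem loop, Npat activates the genes at the start of S phase, and in human cells some members are known to give polyadenylated mRNA after the cells have stopped dividing. Droplet libraries prime cDNA on poly(A), so the UMIs counted here are not a measure of all histone mRNA. What part of them comes from polyadenylated histone mRNA was not determined.

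Single-cell RNA-seq libraries (Chromium, 10x Genomics) were made from dissociated tissue labelled fetal lung, after lysis of red blood cells, and hold 43351 cells. All fetuses were Cyp27a1-/-, without the sterol hydroxylase of that name. They were taken at E14.5 or E18.5, in days of embryonic development, and had been carried by a Cyp27a1-/- mother (null mother below) or by a Cyp27a1+/- mother (heterozygous mother below). Each of the 4 groups is 1 library, so there is no replicate and no test between groups, and all intervals below are exact 95% intervals that cover counting error only. Strain, the number of fetuses per library and the number of litters are not given in the sources used here.

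Several facts of the libraries bear on every result. The E14.5 libraries held 4843 cells with a null mother and 4957 with a heterozygous mother, at a median of 6387 and 3697 UMIs per cell. The E18.5 libraries held 16517 and 17034 cells in the same order of mothers, at a median of 4848 and 3782.5 UMIs. The lung transcription factor gene Nkx2-1 had 1 UMI with the null mother and 4 UMIs with the heterozygous mother in the libraries labelled E18.5 lung, while the liver gene Alb stood at 8344 and 2905 CPM, the UMIs scaled to an equal total. Those libraries are therefore described by their liver and blood cells. Xist, the RNA of the inactive X chromosome, was at 261 CPM with the null mother and at 0.347 CPM with the heterozygous mother at E18.5, so the sex of the fetuses and the mother cannot be told apart. The name of the library labelled E18.5 with a heterozygous mother also carries a WT tag that its genotype label does not. The 3' tags of Cyp27a1 do not check a deletion. Haemoglobin genes took 5.92% of UMIs with the null mother and 14.2% with the heterozygous mother at E18.5. Of 42836 distinct cell barcodes, 361 occurred in more than 1 library.

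Cells were assigned to a class by marker lists, and a class was used where both libraries of an age held at least 50 cells. That gave 4 classes at E14.5 and 14 at E18.5, each named for its markers (hepatocyte-like, B-lineage-like and so on, with the suffix left out below). Every marker on its list was found in a class, except 1 of 10 in blood progenitors of the null mother and 1 of 14 in hepatocytes of the heterozygous mother. Specific-granule neutrophil precursors had 2 markers of mature neutrophils, beside 4 of their own, among their 10 leading genes. Monocytes had 2 of their own with the null mother and 4 with the heterozygous mother. The MHC class II genes H2-Aa and H2-Eb1 were among their leading genes in both libraries, so that class may hold other cells. The gates took in 77.2% and 69.8% of E14.5 cells with a null and a heterozygous mother, and 92.3% and 93.3% of E18.5 cells.

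The stem loops of the members are shown because they are the element by which replication-dependent histone mRNAs are defined. A stem of 6 bases around a loop of 4 was found after the coding sequence of 35 of the 54 genes in their GENCODE transcripts (GRCm38), in 5 spellings. The stem arms are in capitals, and T stands for U.
Stem loop of 20 members, Hist1h1c, Hist1h1e and Hist1h2ae among them: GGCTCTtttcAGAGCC
Stem loop of 6 members, Hist1h3c and Hist1h3e among them: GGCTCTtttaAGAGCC
Stem loop of 6 members, all H4, Hist1h4d and Hist1h4h among them: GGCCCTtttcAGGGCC
Stem loop of 2 members, Hist1h4b and Hist1h4j: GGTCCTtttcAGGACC
Stem loop of Hist1h4i: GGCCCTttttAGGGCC
The spelling went with the histone type: all 9 genes with one of the last 3 spellings encode H4, and no gene with one of the first 2 does. The annotated transcript of Hist1h1b ends at its stop codon with 0 bases after it, as do those of 10 other members, so no stem loop could be found there. None was found in the 742 bases after the coding sequence of the annotated Hist1h2bc transcript, against 199 annotated bases after that of Hist1h2ae, which has one. The Hist1h2bc gene spans chr13:23684199-23692908, while that transcript has 1156 bases. Only transcripts were searched, so a stem loop elsewhere in the gene would not have been found.

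Coding sequences of H1 genes are rich in lysine codons. The 20-base window with the most A in Hist1h1b held 14 A, the most of any member, and those of Hist1h1e and Hist1h1c held 12 and 11. They are shown for the 3 H1 genes with the most UMIs, with A in capitals.
Hist1h1b, coding bases 61 to 80: AAgAAgAAgAcAAcgAAAAA
Hist1h1e, coding bases 637 to 656: AAAAccgcAgccAAgAAAAA
Hist1h1c, coding bases 61 to 80: AAAAAgAAggccgccAAgAA
Across the 54 genes the number of UMIs had a Spearman correlation of 0.16 with the largest A count of a window, and of -0.066 over the 48 members that are not H1. It was 0.34 with the number of bases annotated after the coding sequence, 0.50 with transcript length and -0.44 with the share of 50-base windows that occur in another histone gene. These are descriptions across genes of 1 cluster, which are not independent.

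RefSeq promoters (GRCm38.p6, from 250 bases before to 50 after the start) were found for 51 of the 54 members, and not for Hist1h2bc, Hist1h3a and Hist1h3f. Promoters of 3 members are printed because these genes behaved differently across cells: Hist1h1b and Hist1h2ae followed S phase genes, and Hist1h1c did so less. Capitals mark the letters of 3 motifs, spelled out after the sequences, on either strand.
Hist1h1b, chr13:21780576-21780875, minus strand: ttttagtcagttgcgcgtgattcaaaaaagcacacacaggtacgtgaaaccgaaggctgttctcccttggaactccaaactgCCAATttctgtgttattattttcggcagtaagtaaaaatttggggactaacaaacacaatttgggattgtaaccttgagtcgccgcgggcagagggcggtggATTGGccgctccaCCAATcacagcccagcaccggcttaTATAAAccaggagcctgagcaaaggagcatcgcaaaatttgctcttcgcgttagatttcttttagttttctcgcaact
Hist1h2ae, chr13:23571171-23571470, minus strand: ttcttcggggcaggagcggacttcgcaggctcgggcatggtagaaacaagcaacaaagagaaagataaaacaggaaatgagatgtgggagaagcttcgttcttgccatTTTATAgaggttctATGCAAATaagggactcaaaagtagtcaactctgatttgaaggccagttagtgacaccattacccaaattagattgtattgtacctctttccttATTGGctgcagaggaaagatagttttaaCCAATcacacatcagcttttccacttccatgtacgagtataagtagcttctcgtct
Hist1h1c, chr13:23738557-23738856, plus strand: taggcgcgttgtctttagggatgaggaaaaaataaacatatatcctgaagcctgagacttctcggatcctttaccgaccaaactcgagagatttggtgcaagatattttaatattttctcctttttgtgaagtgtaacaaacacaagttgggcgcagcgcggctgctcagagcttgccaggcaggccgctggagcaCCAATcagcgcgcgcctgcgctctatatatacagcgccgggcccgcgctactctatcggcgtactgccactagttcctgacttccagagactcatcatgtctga
CCAAT, the letters bound by NF-Y, occurred in 43 of the 51 promoters and in 37.4% of all 32851 promoters of this length. It was present in all 6 H1, 13 H2A, 14 H2B and 7 H3 genes with a promoter, and in 3 of 11 H4 genes. TATAAA occurred in 31 of the 51 and in 13.6% of all promoters. ATGCAAAT, the letters bound by Oct factors, occurred in 11 of the 51, which were 5 H2A and 6 H2B genes, and in 1.74% of all promoters. A match says only that these letters are in the window. Windows of neighbouring H2A and H2B genes on opposite strands can overlap, so 1 site can count for 2 genes. The Hist1h2ae window overlaps that of Hist1h2bg, chr13:23571150-23571449 on the plus strand. Its marked ATGCAAAT and TTTATA lie in that overlap. The counts are therefore not of 51 separate stretches of DNA. The Hist1h1c promoter holds CCAAT and not TATAAA, and that of Hist1h1b holds both.

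The members gave 597535 UMIs over the 4 libraries, unevenly. H1 genes held 52.5% of them, H2A genes 19.9%, H2B genes 11.4%, H4 genes 11.2% and H3 genes 5.07%. Hist1h1b alone had 172210 UMIs, or 28.8%, and 13 genes together had 90.1%. UMIs of 3' tags are not scaled to length and copies of a gene share sequence, so these shares do not rank the genes by expression. Of Hist1h2ap, 93.1% of 50-base windows occur in another histone gene, of Hist1h2br 99.8% and of Hist1h2bq 100%. The annotated Hist1h2be gene also overlaps Hist1h1e on the same strand, so values of these genes are uncertain.

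The annotation places Hist1h1b at chr13:21779883-21780625 on the minus strand, Hist1h2ae at chr13:23570517-23571220 on the minus strand, Hist1h1c at chr13:23738808-23740367 on the plus strand and Hist1h2bc at chr13:23684199-23692908 on the plus strand (GRCm38). Within H1 the next most UMIs were in Hist1h1e with 69683 and Hist1h1c with 37901. In H2A the most were in Hist1h2ae with 67394, Hist1h2ap with 25960 and Hist1h2ac with 9116. These H2A counts include reads that near-identical copies may share. In H2B, Hist1h2bc had 43314, Hist1h2bj 5780 and Hist1h2be 3961. In H3, Hist1h3c had 11630, Hist1h3e 5483 and Hist1h3d 4543, and in H4, Hist1h4i had 32045, Hist1h4d 27367 and Hist1h4h 3569. The testis members were nearly absent: Hist1h2ba was at 0, Hist1h2aa had 3 UMIs and Hist1h1t, the testis linker histone, had 104. Hist1h2bq was also at 0, but 100% of its 50-base windows occur in another histone gene. Its 0 therefore does not show that the gene is silent. A count of 0 allows up to 3 UMIs, and 7 of the 54 members stayed under 50 UMIs in every library.

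Summed over all members, the level of a class lay between 195 and 4348 CPM. Basophils or mast cells were highest, with 3737 CPM in the library of the null mother and 4348 CPM in that of the heterozygous mother. B lineage cells followed with 3158 and 2862 CPM. Both classes were among the highest with either mother. The E18.5 late erythroid class had 2414 and 2229 CPM, monocytes 2313 and 2225 CPM, and blood progenitors 2041 and 1833 CPM. Early erythroid cells had 1854 CPM with the null mother and 2350.0 CPM with the heterozygous mother. Neutrophil classes lay lower, with 1669.8 and 1747 CPM in early precursors, 1678 and 1815 CPM in specific-granule precursors and 1355 and 1629.7 CPM in mature cells.

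Megakaryocytes had 1107 CPM with the null mother and 1402 CPM with the heterozygous mother. Macrophages had 1104 and 899 CPM. E18.5 mesenchyme had 898 and 856 CPM and E18.5 endothelium 811 and 883 CPM, in the same order of mothers. The lowest E18.5 class was the hepatocytes, with 565 and 559 CPM. At E14.5, epithelium had 2166 and 2493 CPM, mesenchyme 2039.8 and 2219 CPM and endothelium 1533 and 1388 CPM. E14.5 late erythroid cells, of which 90.1% and 87.3% of UMIs were haemoglobin, had 215 and 195 CPM.

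**Figure D1:**
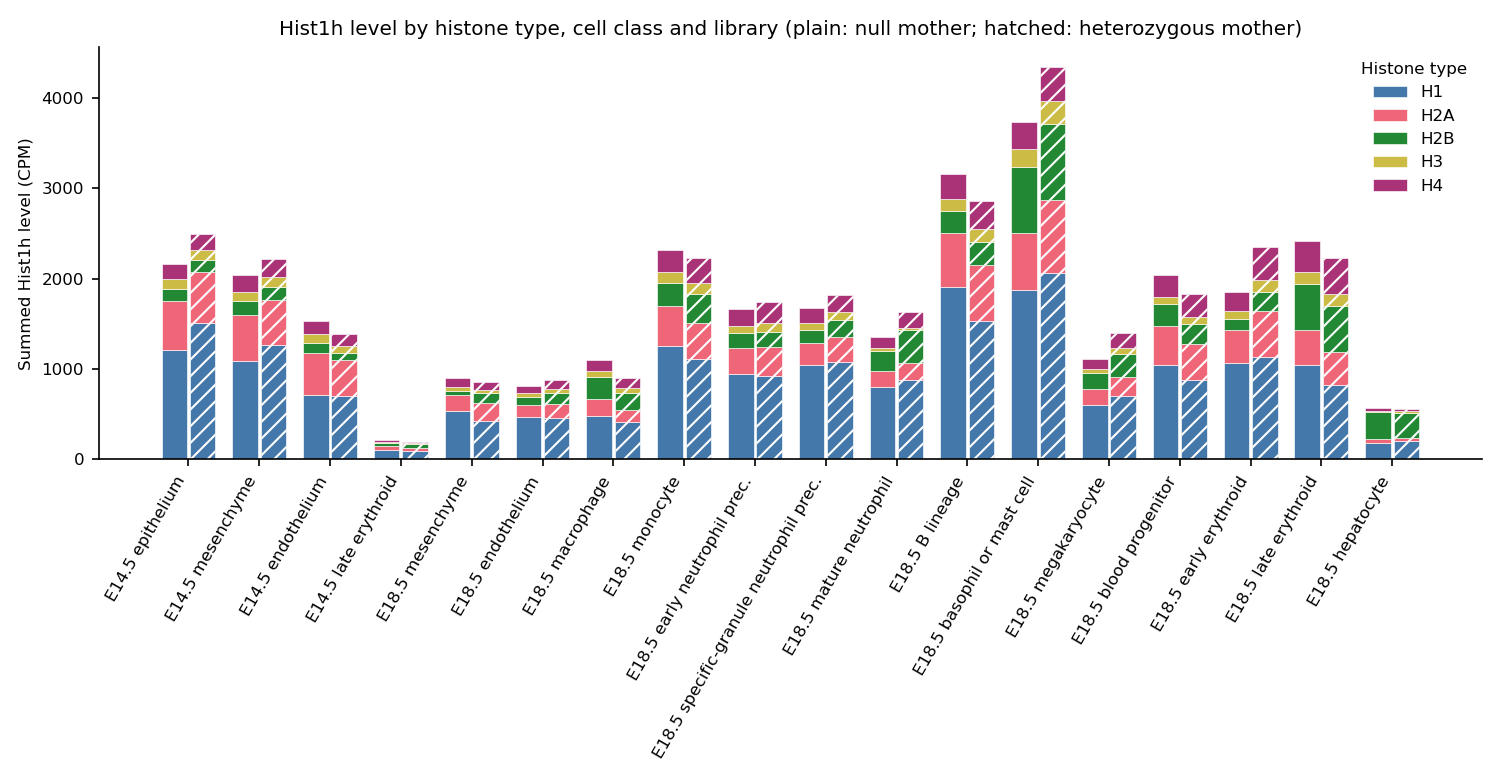
Summed level of Hist1h genes in CPM, the UMIs scaled to the class total, stacked by histone type, for each cell class, with the library of the null mother (plain) left of that of the heterozygous mother (hatched). Basophils or mast cells are the tallest pair at 3737 and 4348 CPM, and H2B makes up 51.8% and 50.4% of the hepatocyte bars.

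The makeup by histone type was similar in most classes, with H1 at 32.9% to 62.0% of Hist1h UMIs over all class and library pairs. Hepatocytes stood apart: H2B made up 51.8% of their Hist1h UMIs with the null mother and 50.4% with the heterozygous mother, against 4.66% to 25.8% in all other classes. A single gene gave nearly all of it, since Hist1h2bc had 281 and 270.0 CPM in hepatocytes. H2A was low there, at 7.53% and 5.99%, and H4 at 5.34% and 4.75%. Late erythroid cells of E18.5 had H2B at 21.1% and 22.9% and H4 at 14.1% and 17.8%, and macrophages had H2B at 22.3% and 21.1%. Mature neutrophils had the lowest H3 share, 2.34% and 1.34%.

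Hist1h1b, a somatic linker histone, ranged from 30.2 CPM in hepatocytes of the heterozygous mother to 1216 CPM in B lineage cells of the null mother. Hist1h2ae, an H2A gene, ranged from 16.1 CPM in hepatocytes to 402 CPM in B lineage cells, both with the heterozygous mother. The extremes of these genes fall in the same classes. Hist1h1c, a linker histone also known from non-dividing cells, ranged from 30.2 CPM in E14.5 late erythroid cells to 906 CPM in basophils or mast cells, both with the heterozygous mother. Hist1h2bc, an H2B gene, ranged from 30.4 CPM in E18.5 mesenchyme of the null mother to 641 CPM in basophils or mast cells of the heterozygous mother. Their highest classes thus differ from those of Hist1h1b and Hist1h2ae.

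Basophils or mast cells held the highest level of 17 of the 33 members with 50 UMIs in a class with the null mother, and of 20 of 37 with the heterozygous mother. Hist1h1c had 723 and 906 CPM there, Hist1h2bc 530 and 641 CPM, and Hist1h2ac, an H2A gene, 318 and 344 CPM. These are the mouse namesakes of 3 members whose polyadenylated transcripts are known from differentiated human cells. The class is small, with 53 and 88 cells. The 50 UMIs behind those counts of highest members could lie in any class. In basophils or mast cells only 10 members had 50 UMIs in the library with the higher level. Some of these peaks thus rest on few UMIs. Hist1h2bg, for example, peaked at 20.3 CPM in a class total of 295950 UMIs with the null mother. How often other genes peak in this class was not counted. The next highest level of Hist1h2ac was 106 CPM, in mature neutrophils of the heterozygous mother.

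**Figure D2:**
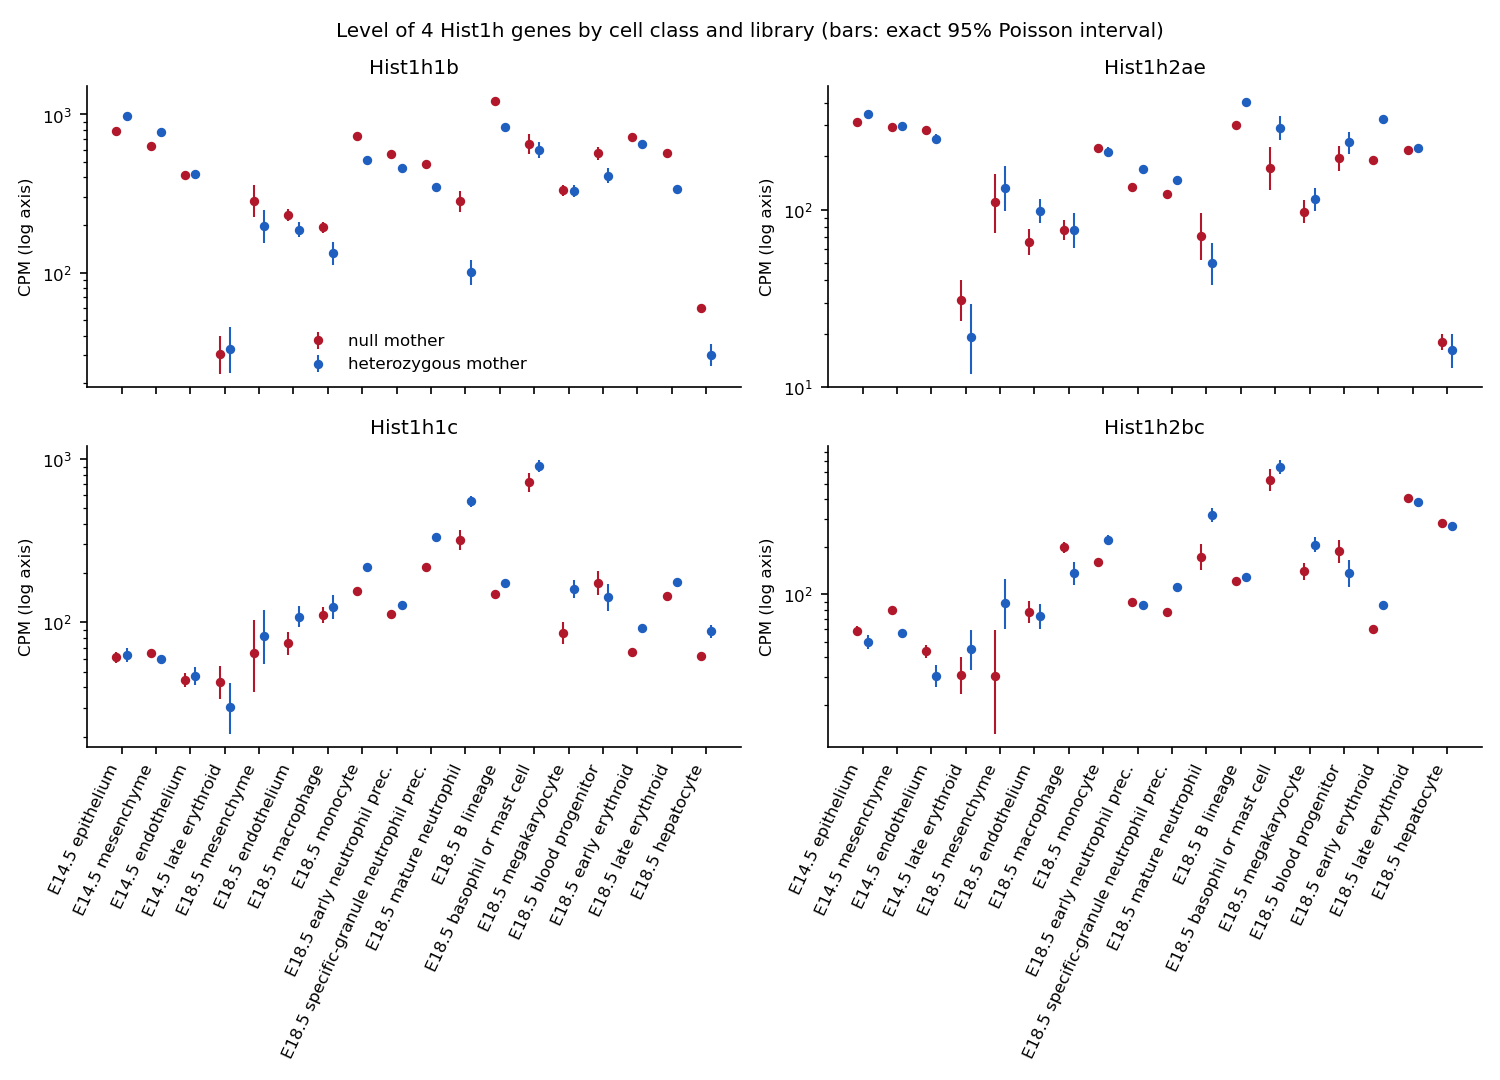
Level of Hist1h1b, Hist1h2ae, Hist1h1c and Hist1h2bc in CPM (log axis) by cell class, with red for the null mother left of blue for the heterozygous mother and bars for the exact 95% Poisson interval. Hist1h1b reaches 1216 CPM in B lineage cells of the null mother, while Hist1h1c peaks in basophils or mast cells and Hist1h2bc stays at 281 and 270.0 CPM in hepatocytes.

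Cell cycle genes varied with the sum of the members. Over the 36 class and library pairs the log2 level of the summed Hist1h genes had a Pearson correlation of 0.84 with that of 36 S phase genes and of 0.91 with that of 37 G2 and M phase genes. H2A had 0.89 and 0.93, H3 0.86 and 0.91, H4 0.84 and 0.92 and H1 0.84 and 0.93. H2B differed, with 0.27 and 0.38, but Hist1h2bc held 43314 of its 68017 UMIs, and H2B was not correlated without it. Hist1h2bc had -0.00 and 0.13 and Hist1h1c 0.13 and 0.39, while Hist1h1b had 0.92 and 0.95. Hist1h2ac lay between them, with 0.47 and 0.62. Points that share a library share its depth, and these values are a description. E14.5 late erythroid cells, with 90.1% and 87.3% haemoglobin, are among the points. Their S phase genes summed to 105 and 159 CPM and their Hist1h genes to 215 and 195 CPM. Haemoglobin lowers the CPM of all other genes there, and its part in the correlations was not tested. Among 6414 other genes the highest correlations with the sum were those of E2f8, a transcription factor of S phase, at 0.92, Lrwd1, a replication origin factor, at 0.91, and the mitotic genes Cdca5, Cdca3 and Dlgap5, at 0.91 each.

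Of the genes that supply histones, Slbp ranged from 7.21 to 273 CPM, with a correlation of 0.86 with the summed Hist1h level, and the histone chaperone gene Asf1b from 0.916 to 117 CPM, with 0.86. Npat, at 0 to 33.8 CPM, had 0.65. Among replication-independent variants, Cenpa, the H3 of centromeres, had 0.91 and H2afx, the H2A of DNA damage sites, had 0.89, whereas H1fx had 0.08 and H2afy2 -0.11. The variant genes thus did not all follow the cluster. These correlations also include the E14.5 late erythroid points.

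Within classes the members were set against the S phase genes of the same cells, after each cell had been thinned to 2000 UMIs. Cells with at least 3 S phase genes found were compared with cells in which fewer than 3 S phase and fewer than 3 G2 and M phase genes were found, in the 15 class and library pairs with 50 cells of both kinds. The summed Hist1h level was 4.80-fold higher at the median in the cells with S phase genes (2.50 to 6.67). By type the median fold was 11.0 for H2A, 6.24 for H3, 5.21 for H1, 4.77 for H4 and 1.61 for H2B. Hist1h2bc held 43314 of the 68017 H2B UMIs, so the H2B fold does not describe the other H2B genes. In E18.5 late erythroid cells of the null mother, H2B had 369 CPM with S phase genes and 421 CPM with few cycle genes. Hist1h2bc gave 230.2 and 412 CPM of these. A fold of H2B without it was not taken. The groups are ranges of a score, not types: of 980 B lineage cells with S phase genes in the null mother library, 117 had exactly 3 of them. All cells of a pair share a library.

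The folds of single members spread over more than an order of magnitude. Hist1h1a and Hist1h1b, both linker histones, had medians of 19.5 and 17.9, and Hist1h2ap and Hist1h2ae, both H2A, had 18.6 and 13.01. Hist1h4d, an H4 gene, had 9.50. Pairs with 0 UMIs in the cells with few cycle genes gave no fold, which left 12 pairs for Hist1h1a, 13 for Hist1h2ap and 14 for Hist1h1d, so these medians cover different pairs. The lowest fold of these 5 in any pair was 2.18, for Hist1h4d. Hist1h1d had 3.69, Hist1h1e 3.41 and Hist1h4i 2.80. Hist1h1c had 1.24, with a range of 0.801 to 3.11, and Hist1h2bc 0.916, with a range of 0.246 to 1.95. For these 2 genes some pairs lay above 1 and others below it. The same held for Hist1h2ac, whose median over 13 pairs was higher, at 1.96, with a range of 0 to 5.17.

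In B lineage cells Hist1h1b had 1779 CPM with S phase genes, 760 CPM with G2 and M phase genes only and 123 CPM with few of either, with the null mother. With the heterozygous mother it had 1217, 450.0 and 66.7 CPM in the same order. Its level was lowest in the cells with few cycle genes in both libraries. Hist1h2bc took another course in E18.5 late erythroid cells: 230.2 CPM with S phase genes, 741 CPM with G2 and M phase genes only and 412 CPM with few of either, with the null mother. With the heterozygous mother it had 313, 964 and 288 CPM. The cells with G2 and M phase genes were highest in both.

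**Figure D3:**
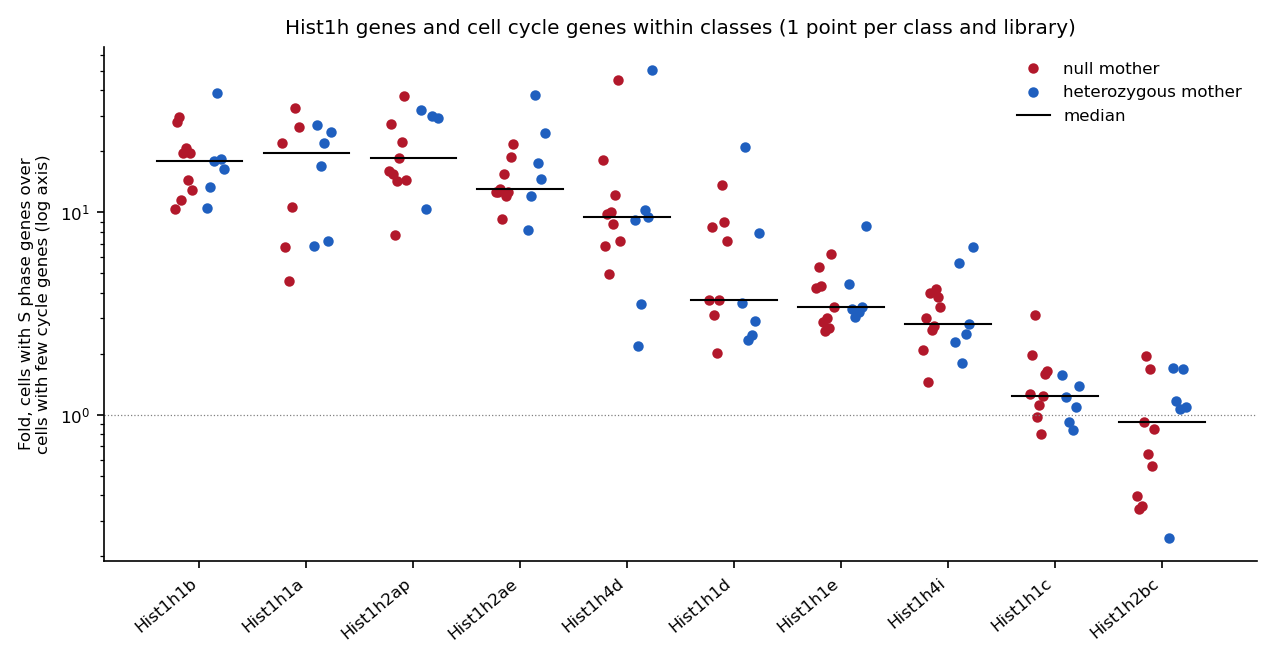
Fold of the level in cells with S phase genes over that in cells with few cycle genes (log axis) for 10 Hist1h genes, 1 point per class and library with UMIs of the gene in both kinds of cell, with red for the null mother left of blue for the heterozygous mother and a line at the median. Hist1h1b has a median of 17.9 and Hist1h2bc one of 0.916.

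At 2000 UMIs per cell, 95.8% of basophils or mast cells with a null mother and 98.8% with a heterozygous mother held at least 1 Hist1h UMI. B lineage cells had 87.7% and 86.9%, and early erythroid cells 87.5% and 89.7%. Hepatocytes had 57.9% and 59.2%, E18.5 mesenchyme 52.1% and 50.0%, and E18.5 endothelium 50.1% and 53.0%. The lowest share of all was that of E14.5 late erythroid cells, at 21.6% (16.1 to 27.9) and 28.6% (20.2 to 38.2). At least 3 S phase genes were found in 0.980% and 0.952% of these cells, and G2 and M phase genes only in 8.33% and 7.62%. Haemoglobin took most of their UMIs, as given above. Without thinning, at median depths of 8560 and 8916 UMIs, they had 59.0% and 65.9%, so the share depends on the depth at which it is taken. No class is known to lack these genes, so no share of free RNA could be set beside these values. The E18.5 late erythroid class had 85.3% (83.6 to 86.8) and 69.9% (68.4 to 71.3).

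The next question was how the members change along a blood lineage within 1 library. A member was measured with at least 50 UMIs on the higher side, and a 1.5-fold limit on the CPM ratio was used. In the neutrophil line with the null mother, 18 of 30 measured members were higher in early precursors than in mature neutrophils, against 64.9% of all genes, and 2 were lower, against 7.1%. With the heterozygous mother 21 of 26 were higher, against 67.4% of all genes, and 3 were lower, against 13.3%. The share of members that were higher was thus near that of all genes with the null mother. The 36 S phase genes measured were all higher in the early precursors with either mother, and 15 of 15 and 15 of 16 of the histone supply genes were. Early precursors held far more UMIs: 18700315 against 630410 in mature neutrophils with the null mother, and 11441405 against 1140725 with the heterozygous mother. A gene high in early precursors thus reached 50 UMIs at a much lower CPM than a gene high in mature neutrophils. The direction of all these counts is therefore in part set by depth. The mature neutrophil class also held cells with cycle genes. Of its 102 and 223 cells with 2000 UMIs, 11.8% and 8.52% had S phase genes, with null and heterozygous mothers in that order. A further 22.5% and 21.5% had G2 and M phase genes only.

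Both members past the limit in the other direction with the null mother were also past it with the heterozygous mother. Hist1h1c had 112 CPM in early precursors and 320.4 CPM in mature neutrophils with the null mother, a ratio of 0.349 (0.302 to 0.406), and 129 against 551 CPM with the heterozygous mother, a ratio of 0.233 (0.212 to 0.256). Hist1h2bc had 89.0 against 173 CPM and 85.7 against 318 CPM. Both genes were lower in the early precursors. Hist1h2ac was the only other measured member past the limit in that direction, at 34.3 against 106 CPM with the heterozygous mother. With the null mother it had 37.2 against 46.0 CPM, from 29 UMIs in mature neutrophils, and so was not measured. Hist1h1b went the other way, with 559 against 282 CPM and 457 against 101 CPM. The largest ratios, 4.62 (0.815 to 184) for Hist1h2ak with the null mother and 13.2 (2.32 to 524) for Hist1h3i with the heterozygous mother, rest on 1 UMI in mature neutrophils.

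In the erythroid line the scaling decides the counts, because haemoglobin took 41.3% of late erythroid UMIs with the null mother and 53.3% with the heterozygous mother. On class totals, 1 of 30 members was higher in early than in late erythroid cells with the null mother, against 63.5% of all genes, and 12 were lower, against 12.3%. With the heterozygous mother 5 of 37 were higher, against 80.8% of all genes, and 6 were lower, against 6.13%. The median log2 ratio was -0.48 for the members and 0.88 for all genes with the null mother, and 0.02 and 1.33 with the heterozygous mother. With haemoglobin and mitochondrial genes left out of the totals, 25 of 30 members were lower in early cells with the null mother, against 23.4% of all genes, and 28 of 36 with the heterozygous mother, against 16.3%. None was higher, against 26.7% and 33.4%. The summed level was then 1966 CPM in early and 4281 CPM in late cells with the null mother, and 2550.3 and 4954 CPM with the heterozygous mother. Of 36 S phase genes, 26 and 34 were higher in early cells on class totals and 0 were lower, whereas without haemoglobin and mitochondrial genes 5 and 4 were higher and 4 and 2 were lower.

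Hist1h2bc had the lowest ratio of early over late erythroid cells in both libraries. It had 60.2 CPM in early and 409 CPM in late cells with the null mother, a ratio of 0.147 (0.139 to 0.156). With the heterozygous mother it had 85.7 and 382 CPM, a ratio of 0.224 (0.213 to 0.236). Hist1h1c had 66.0 against 146 CPM and 92.2 against 178 CPM. Both genes were again lower at the early stage, as in the neutrophil line. On class totals Hist1h1a was higher at the early stage, with 90.6 against 53.9 CPM and 98.2 against 52.3 CPM. Hist1h1b had 719 against 569.8 CPM, a ratio of 1.26, and 649.5 against 340.3 CPM, a ratio of 1.91 (1.85 to 1.96). Without haemoglobin and mitochondrial genes Hist1h1b was at ratios of 0.754 (0.733 to 0.776) and 0.932 (0.906 to 0.959), and Hist1h1a at 1.01 (0.921 to 1.10) and 0.916 (0.850 to 0.986). The ratios of Hist1h2bc were then 0.0881 and 0.110, and those of Hist1h1c 0.271 and 0.253.

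The study's own contrast is the null against the heterozygous mother. Summed over all members the ratio lay between 0.789 and 1.23 in the 18 classes. It was under 1 in epithelium at 0.869 (0.852 to 0.885) and mesenchyme at 0.919 (0.909 to 0.930) of E14.5, and over 1 in E14.5 endothelium at 1.10 (1.07 to 1.14). After thinning, 70.8% and 77.5% of epithelium cells had S phase genes, with null and heterozygous mothers in that order. Mesenchyme had 56.1% and 69.7%, and endothelium 70.1% and 82.0%. Mesenchyme cells with S phase genes had a summed level of 2585 and 2392 CPM, and those with few cycle genes 444 and 522 CPM. The part of these shares in the ratios was not tested. At E18.5 the lowest ratios were those of early erythroid cells at 0.789 (0.779 to 0.799), megakaryocytes at 0.790 (0.744 to 0.839) and mature neutrophils at 0.831 (0.766 to 0.902). The highest were 1.23 (1.14 to 1.32) in macrophages, 1.11 (1.04 to 1.20) in blood progenitors and 1.10 (1.08 to 1.12) in B lineage cells. Hepatocytes, at 1.01 (0.970 to 1.05), E18.5 mesenchyme and E14.5 late erythroid cells had intervals that include 1. No summed ratio passed 1.5-fold in either direction.

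Of the 54 members, 41 were measured in at least 1 class. At E14.5 none of 26 was past the limit in epithelium, where 4.87% of all genes were higher and 1.47% lower with the null mother. In mesenchyme none of 37 was, against 3.02% higher and 2.02% lower. In endothelium 1 of 21 was higher and 0 lower, against 4.19% and 1.85%, and it was Hist1h2bb at 8.74 and 4.95 CPM. In late erythroid cells 1 of 2, Hist1h2ae at 31.0 and 19.2 CPM, was higher and 0 lower, against 1.85% and 30.7%. The 2 members past the limit at E14.5 thus had 21 to 80 UMIs per library.

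Early erythroid cells of E18.5 held the largest count. There 19 of 33 measured members were lower with the null mother and 0 were higher, against 1.69% and 4.24% of all genes. The median log2 ratio of the members was -0.67, beside 0.07 for all genes. At a limit of 2-fold, 8 were lower, against 0.304% of all genes. By type, 8 of 10 H2B, 4 of 4 H4, 3 of 7 H2A, 3 of 7 H3 and 1 of 5 H1 genes were lower. The 19 included genes with many UMIs: Hist1h2ae had 191 CPM with the null mother and 325 CPM with the heterozygous mother, a ratio of 0.586 (0.564 to 0.608). Hist1h4i had 109 and 186 CPM, and Hist1h4d 81.7 and 130.4 CPM. The single H1 gene was Hist1h1e, at 155 and 241 CPM. The ratios of these 4 genes lay between 0.586 and 0.645.

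The lowest ratio in early erythroid cells was that of Hist1h4h, with 7.74 and 22.4 CPM, 0.345 (0.288 to 0.411). Hist1h4c had 4.04 and 11.2 CPM and Hist1h3i 6.08 and 15.2 CPM. The ratio was above 1 in 3 of the 33 members, which were Hist1h2an, Hist1h2ap and Hist1h1b. Hist1h1b had 719 CPM with the null mother against 649.5 CPM with the heterozygous mother, 1.11 (1.08 to 1.13). Without Hist1h1b the summed ratio of the other members was 0.668 (0.657 to 0.678). Other genes of the pathway did not move alike. The 13 genes of the other histone clusters summed to 116 and 192 CPM, with 5 of 8 measured lower, whereas 2 of 36 S phase genes, 0 of 37 G2 and M phase genes and 0 of 16 histone supply genes were lower, and none of these 3 lists had a higher gene. The 10 measured histone variants had 0 in either direction.

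In the E18.5 late erythroid class the scaling turned the direction of a summed ratio whose interval excludes 1. On class totals 2 of 34 members were higher with the null mother, against 39.1% of all genes, and 6 were lower, against 0.534%. The median log2 ratio of all genes was 0.50, and that of the members -0.11. Haemoglobin was 41.3% of UMIs with the null mother and 53.3% with the heterozygous mother. Without haemoglobin and mitochondrial genes the median of all genes was 0.16 and that of the members -0.40, 10 members were lower and 0 higher, against 1.59% and 15.7% of all genes, and the summed ratio was 0.864, where it is 1.08 (1.07 to 1.10) on class totals. The hepatocyte ratio, 1.01 on class totals with an interval that includes 1, was 0.988 on that scale. Among cells with at least 1000 genes and less than 10% mitochondrial UMIs the summed ratio was 0.740. Relative to the median of all genes the median of the members was lower on either scale. Hist1h4c, at 5.81 and 13.7 CPM, and Hist1h4h, at 8.87 and 17.4 CPM, were lower here as in early erythroid cells.

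The cells of that class also differed in cycle genes. After thinning, 35.6% with the null mother and 24.0% with the heterozygous mother had S phase genes, and 41.2% and 19.8% had G2 and M phase genes only. Among cells with S phase genes the summed Hist1h level was 3348 CPM (3254 to 3445) and 3796 CPM (3708 to 3885). Among cells with few cycle genes it was 795 CPM (738 to 854) and 682 CPM (658 to 707). When few cycle genes were counted at full depth instead, in cells of any depth, the ratio of such cells was 1.01, so the difference there depends on how they are chosen. The share of each kind of cell differs between the libraries, and its part in the class ratio was not tested. The thinned UMIs included haemoglobin, whose part in the split was not tested either.

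In the granulocyte and monocyte classes few members passed the limit. Specific-granule precursors had 1 of 32 higher and 6 lower, against 7.51% and 2.14% of all genes. Early precursors had 1 of 31 higher and 5 lower, against 4.96% and 0.796%. Monocytes had 2 of 27 higher and 4 lower, against 4.62% and 2.47%. In all 3 the lower count is above the background share and the higher count is near or under it. Mature neutrophils had 1 of 6 higher and 4 lower, against 12.8% and 13%. Hist1h4c was lowest in specific-granule precursors, at 4.05 and 7.73 CPM, Hist1h2af in early precursors, at 4.17 and 9.53 CPM, and Hist1h2br in monocytes, at 5.06 and 10.0 CPM. In mature neutrophils Hist1h2ac was lowest, at 46.0 and 106 CPM, and Hist1h1b was the 1 higher gene, at 282 and 101 CPM, 2.80 (2.20 to 3.57). That class held cells with cycle genes, with S phase genes in 11.8% and 8.52% after thinning. Their part in these ratios was not tested.

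B lineage cells had 3 of 31 members higher with the null mother and 3 lower, against 3.7% and 1.91% of all genes. The extremes were Hist1h2an, at 13.6 and 7.41 CPM, and Hist1h4c, at 4.73 and 8.18 CPM. Hepatocytes had 3 of 12 higher and 1 lower, against 9.86% and 2.05%, with Hist1h1b highest at 60.2 and 30.2 CPM, 2.00 (1.69 to 2.37), and Hist1h1d lowest at 9.13 and 14.6 CPM. Macrophages had 3 of 11 higher and 0 lower, against 8.76% and 3.83%, and Hist1h3d was highest at 27.9 and 12.3 CPM. Haemoglobin genes held 11.8% and 3.68% of UMIs in that class, and the median depth was 5108 and 1889 UMIs per cell. Without haemoglobin and mitochondrial genes the summed ratio was 1.34, and 6 members were higher and 0 lower, against 11.6% and 1.92% of all genes. After thinning, 26.2% of macrophages with the null mother and 9.15% with the heterozygous mother had G2 and M phase genes only. S phase genes went the other way, in 13.1% and 14.02% of these cells. Over the whole class, G2 and M phase genes summed to 2534 and 1773 CPM, and S phase genes to 789 and 1063 CPM. The part of the depth and of the cells with cycle genes in these macrophage ratios was not tested.

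The remaining E18.5 classes are small or had few measured members. Blood progenitors had 2 of 11 higher and 0 lower, against 3.44% and 2.86%, with Hist1h2ac highest at 95.3 and 58.9 CPM. Megakaryocytes had 0 of 9 higher and 2 lower, against 4.44% and 4.17%, with Hist1h1c lowest at 86.0 and 160 CPM, 0.539 (0.439 to 0.660). Basophils or mast cells had 0 of 10 higher and 2 lower, against 4.32% and 13.3%, with Hist1h1a lowest at 54.1 and 142 CPM, from 16 and 76 UMIs. Endothelium had 0 of 9 in either direction, against 3.54% higher and 3.81% lower, and mesenchyme 0 of 1, against 6.73% and 7.13%.

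**Figure D4:**
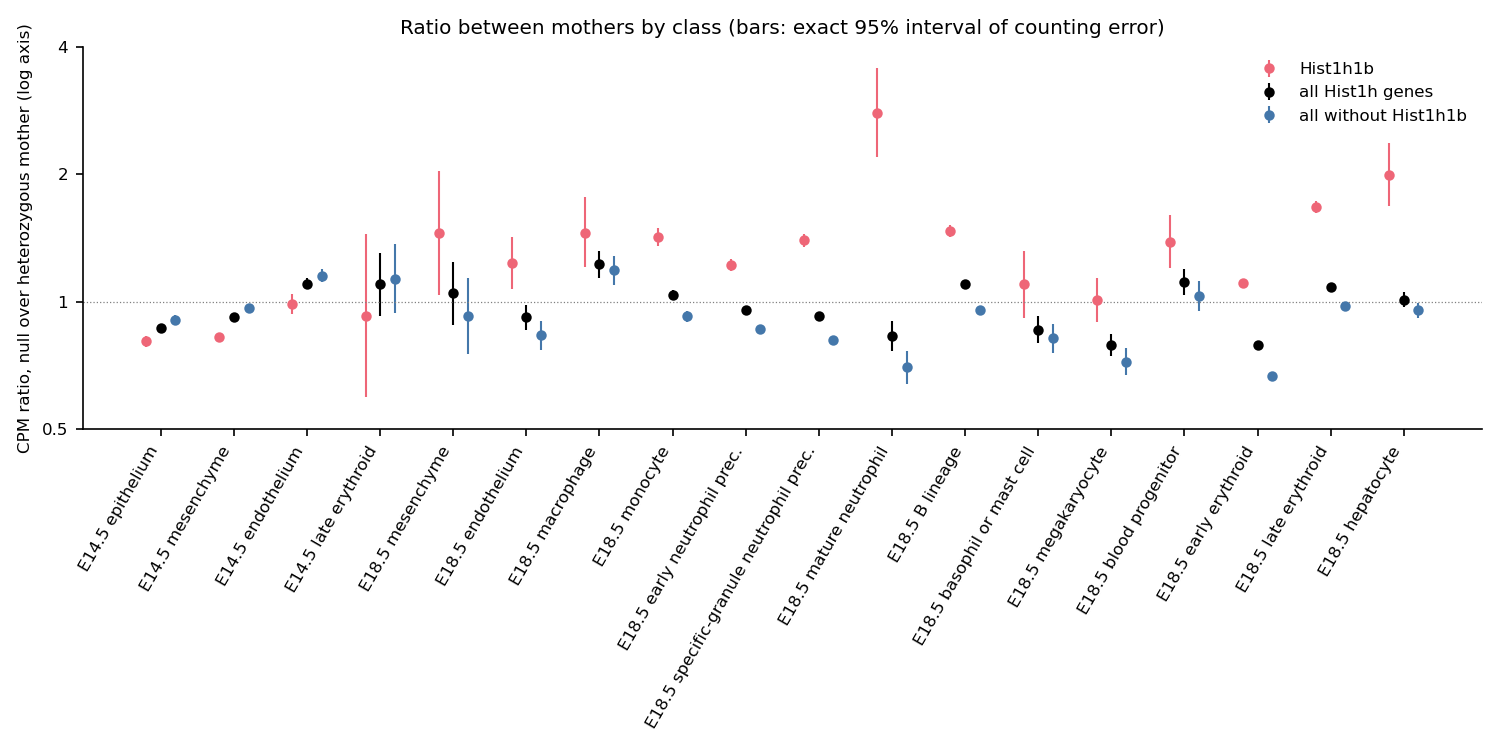
CPM ratio of null over heterozygous mother (log axis) for Hist1h1b (red), all Hist1h genes (black) and all without Hist1h1b (blue) in each class, with exact 95% intervals of counting error. Early erythroid cells have the lowest ratio of all members, 0.789, and 0.668 without Hist1h1b, while Hist1h1b reaches 2.80 in mature neutrophils.

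Hist1h1b differed from the other members in the E18.5 libraries, a pattern that was chosen after its values were seen. Its share of the Hist1h UMIs of a class, which does not depend on the class total, was higher with the null mother in 14 of 14 E18.5 classes, with intervals apart in 12. It was 38.5% (37.9 to 39.1) and 28.9% (28.3 to 29.5) in B lineage cells, 38.8% (38.3 to 39.2) and 27.6% (27.2 to 28.0) in early erythroid cells, and 20.8% (18.2 to 23.7) and 6.19% (5.13 to 7.38) in mature neutrophils. In hepatocytes it was 10.7% (10.1 to 11.3) and 5.40% (4.61 to 6.29). At E14.5 the share was lower with the null mother in 4 of 4 classes, with intervals apart in 3: 36.2% and 39.0% in epithelium, 31.1% and 34.7% in mesenchyme and 27.0% and 30.2% in endothelium. The sign therefore differed between the ages.

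The difference at E18.5 was also present among cells with S phase genes. There Hist1h1b made up 40.3% (39.3 to 41.3) with the null mother and 30.4% (29.3 to 31.4) with the heterozygous mother in B lineage cells. Early erythroid cells had 37.3% and 25.7%, late erythroid cells 31.3% and 18.6% and monocytes 35.0% and 27.6%. At E14.5 such cells had 36.4% and 39.5% in epithelium, 28.5% and 32.6% in endothelium and 34.9% and 34.4% in mesenchyme, with intervals that overlap in each. All 14 classes of an age come from the same 2 libraries, so they do not repeat the comparison, and a difference between libraries cannot be told apart from the mother.

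The share of Hist1h2ap was higher with the null mother at both ages, in 14 of 14 E18.5 classes, with intervals apart in 7, and in 4 of 4 E14.5 classes, with intervals apart in 3. In early erythroid cells it was 5.25% and 3.73%, and in E14.5 epithelium 7.25% and 5.25%. Hist1h1c was lower with the null mother in 13 of 14 E18.5 classes, with intervals apart in 11, as in mature neutrophils at 23.7% and 33.8%. Hist1h1e, the linker histone with the second most UMIs, was lower in 8 of 14 classes with intervals apart in 6, and higher in 6, with intervals apart in 0. The shares of the H1 genes thus did not shift together. All shares of a class are parts of the same Hist1h total, so a higher share of Hist1h1b by itself lowers the others. Its part in the lower shares of Hist1h1c and Hist1h1e was not tested. Over the whole E18.5 libraries, Hist1h1b had 536 CPM with the null mother and 447 CPM with the heterozygous mother. Hist1h1c had 120 and 179 CPM and Hist1h1e 178 and 238 CPM in the same order. Those values mix all classes of a library.

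**Figure D5:**
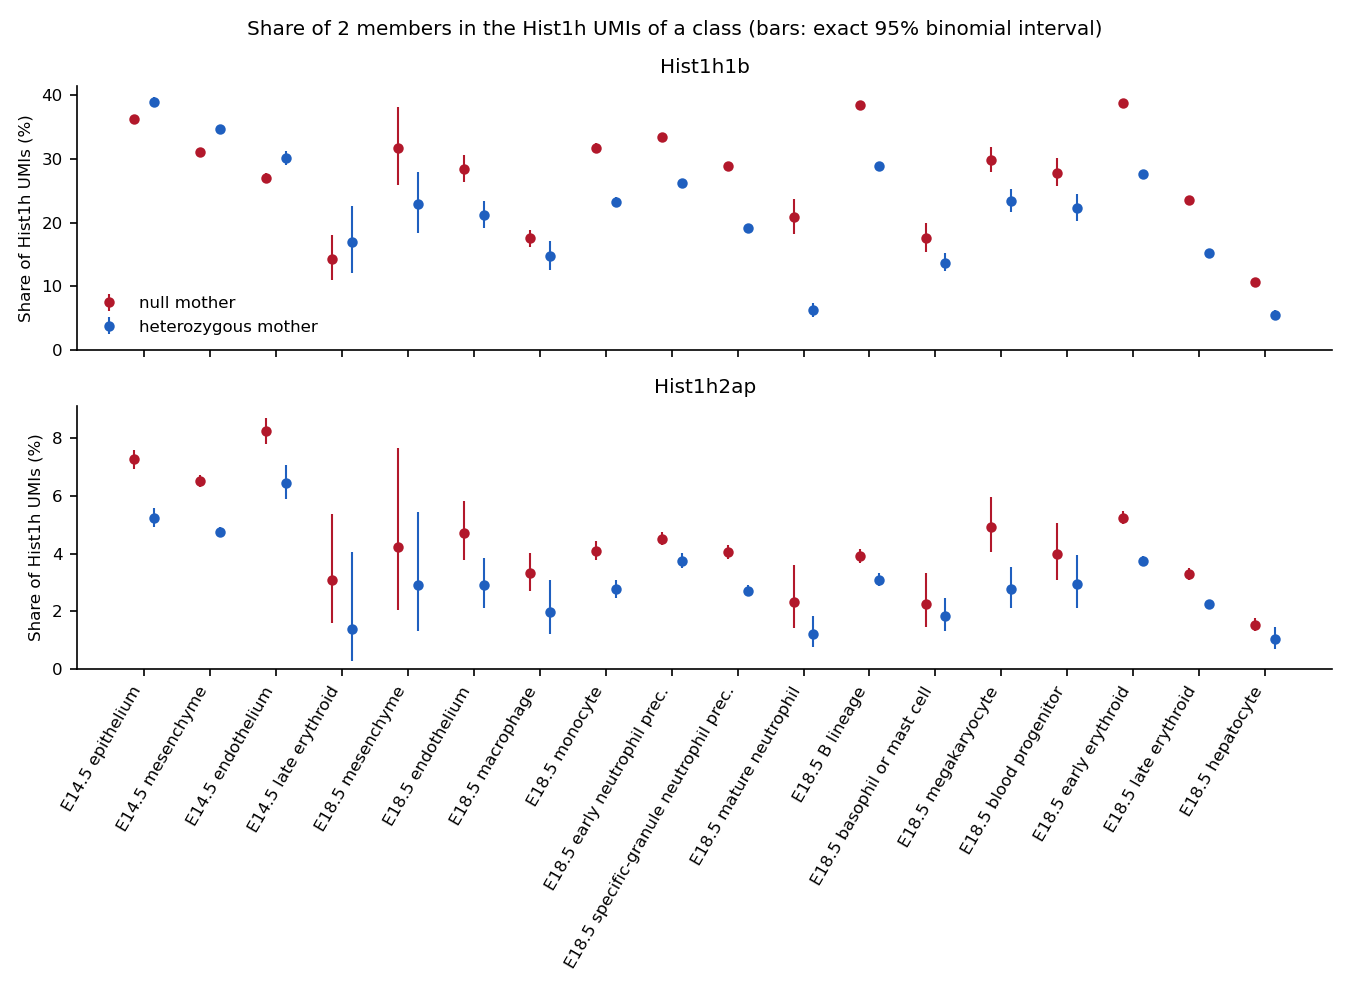
Share of Hist1h UMIs, in percent, held by Hist1h1b (upper) and Hist1h2ap (lower) in each class, with red for the null mother left of blue for the heterozygous mother and bars for the exact 95% binomial interval. Hist1h1b is higher with the null mother in all 14 E18.5 classes and lower in all 4 E14.5 classes.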

How the data were processed

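Single-cell RNA-seq of 4 libraries was analysed, 1 per group. The authors deposited UMI counts as 1 matrix of 31053 genes and 43351 cells with a table that names each cell's library. Other columns deposited by the authors, such as gene symbols, barcodes and per-cell totals, served to read that matrix. Per the submitters' processing notes, Cell Ranger 3.0.0, Seurat 4.3.0 and the mm10 genome were used. The strand setting of the counting is not given in the sources used here. The files named for genes and for barcodes hold each other's contents, which the numbers of entries and the annotation table settled. The smallest cell had 500 UMIs, so a filter had been applied before deposit, and doublets were not called here.

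A cell was assigned to the class whose marker list had the largest share of genes found, with at least 3 found and a strict lead, among 17 lists of 6 to 14 genes. The lists were fixed in the design and the assignment rule was set after the files had been read. The members and lists were chosen with earlier results of these data known. Counts were summed per class and library and divided by the class total (CPM), in Python 3.11.15 with numpy 2.4.6, pandas 2.3.3, scipy 1.17.1 and matplotlib 3.10.9. Poisson, conditional binomial and Clopper-Pearson intervals at 95% were exact. They cover counting error only, since UMIs of 1 library are no replicates. A gene counted as measured where the side with the higher CPM had 50 UMIs or more, and as higher or lower where the ratio passed 1.5-fold. Where the 2 class totals differ, this rule admits more genes that are high on the side with more UMIs. Against a count of 0, a bound from 3 counts was used. The rule for named genes took, per histone type, the 3 members with the most UMIs, the highest and the lowest member past the limit in each comparison, and the 5 genes most correlated with the summed level. Other members named with values were chosen after their values were seen. Cell totals were thinned to 2000 UMIs for shares of cells and for the split by cycle genes. The scripts were tested on simulated data. No adjusted values and no tests were made, since each group has 1 library.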

Additional observations from a re-analysis of the deposited data

Results flagged for a closer look

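The sign of the summed null over heterozygous ratio differed between classes of the same age, and each ratio below has an interval that excludes 1. None of these differences between classes was tested, since each class has 1 library per mother and the classes of an age share both libraries. At E14.5 the ratio was 1.1 in endothelium, whereas it was 0.869 in epithelium and 0.919 in mesenchyme. At E18.5 it was above 1 in macrophages at 1.23, blood progenitors at 1.11, B lineage cells at 1.1, late erythroid cells at 1.08 and monocytes at 1.04. It was below 1 in early erythroid cells at 0.789, megakaryocytes at 0.79, mature neutrophils at 0.831, basophils or mast cells at 0.86, endothelium at 0.919, specific-granule neutrophil precursors at 0.924 and early neutrophil precursors at 0.956. Some of these directions turn with the processing, as given in the part on processing: late erythroid cells to 0.864 and 0.740, monocytes to 0.779, B lineage cells to 0.970, E18.5 endothelium to 1.17 and 1.00, and early neutrophil precursors to 1.01. All ratios in this paragraph lie within the 1.5-fold limit used for single genes. Shares of cells with cycle genes also differed between mothers in some of these classes, and their part was not tested.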

How the results depend on the processing

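The limits are those of 1 library per group: no alternative gives a spread between samples, and the cause of each shift below was not tested. No paired analysis was possible because each group is 1 library and the replicate number they share is only a name. Of the summed ratios between mothers, 74 recomputed values stayed within the counting interval, 33 left it and 7 turned direction. Only ratios whose own interval excludes 1 were counted as turned. A further 5 values crossed 1 where it is included: 0.567 and 0.639 in E14.5 late erythroid cells, 0.963 in E18.5 mesenchyme, and 0.988 and 0.939 in hepatocytes. Counts of members between mothers stayed within 1.5 times in 94 cases and did not in 74, and those between stages did in 7 and did not in 12. The alternatives for the stages were chosen after seeing the data. Counts of members past the limit in this part take both directions together. Shares of all genes stand beside them only where the results above give them. Those shares move with the setting too. In E18.5 late erythroid cells 39.1% of all genes were higher on class totals and 15.7% without haemoglobin and mitochondrial genes. The counts therefore do not show whether members moved more than other genes. Shares of cells with a UMI follow the depth to which cells were thinned, and 65 recomputed shares moved beyond their interval while 7 did not. The early erythroid count of 19 became 17 to 28 under changes of total, gate, cell filter and UMI minimum. Cells with few cycle genes were chosen here at full depth, among cells of any depth, and not after thinning as in the report; thinned, they had 315 and 320 CPM in E18.5 endothelium, 770 and 730.0 CPM in B lineage cells and 795 and 682 CPM in E18.5 late erythroid cells, with null and heterozygous mothers in that order. With the mean over cells in place of the summed counts, the summed ratio was 0.887 in E14.5 epithelium, 1.16 in E14.5 endothelium, 0.567 in E14.5 late erythroid, 1.37 in E18.5 macrophage, 1.09 in E18.5 monocyte, 0.956 in E18.5 specific-granule precursors, 0.683 in E18.5 mature neutrophil, 1.17 in E18.5 B lineage, 0.799 in E18.5 early erythroid and 1.25 in E18.5 late erythroid. There members past the limit numbered 0 in E14.5 late erythroid, 1 in E18.5 mesenchyme and E18.5 basophils or mast cells, 2 in E18.5 endothelium and E18.5 hepatocyte, 3 in E14.5 epithelium, 4 in E14.5 endothelium, 5 in E18.5 macrophage, 6 in E14.5 mesenchyme and E18.5 megakaryocyte and 18 in erythroid stages with the heterozygous mother. With a minimum of 10 UMIs, members past the limit numbered 2 in E14.5 mesenchyme, 3 in E18.5 mesenchyme, 5 in E14.5 epithelium and E14.5 late erythroid, 6 in E18.5 endothelium and E18.5 blood progenitor, 7 in E18.5 megakaryocyte, 8 in E14.5 endothelium and E18.5 basophils or mast cells, 9 in E18.5 macrophage and E18.5 mature neutrophil, 10 in E18.5 early neutrophil precursors, 11 in E18.5 specific-granule precursors, E18.5 B lineage and E18.5 hepatocyte, 12 in E18.5 monocyte and 15 in E18.5 late erythroid. With a minimum of 200 UMIs, members past the limit numbered 0 in E14.5 endothelium, E14.5 late erythroid, E18.5 macrophage, E18.5 basophils or mast cells and E18.5 blood progenitor, 1 in E18.5 monocyte, E18.5 early neutrophil precursors, E18.5 B lineage, E18.5 megakaryocyte and E18.5 hepatocyte, 2 in E18.5 specific-granule precursors and E18.5 mature neutrophil, 7 in erythroid stages with the heterozygous mother, 8 in erythroid stages with the null mother, 10 in neutrophil stages with the null mother and 13 in neutrophil stages with the heterozygous mother. In cells with few cycle genes found alone, the summed ratio turned to the other side of 1, at 1.17 in E18.5 endothelium, 0.779 in E18.5 monocyte and 0.970 in E18.5 B lineage. There the summed ratio was 0.748 in E14.5 mesenchyme, 0.639 in E14.5 late erythroid, 1.07 in E18.5 macrophage, 0.723 in E18.5 specific-granule precursors, 0.575 in E18.5 mature neutrophil and 1.01 in E18.5 late erythroid. There members past the limit numbered 0 in E14.5 late erythroid, 1 in E18.5 endothelium and E18.5 macrophage, 2 in E18.5 monocyte and E18.5 B lineage, 3 in E18.5 late erythroid and 4 in E18.5 specific-granule precursors. With a limit of 2-fold, members past the limit numbered 0 in E14.5 endothelium, E14.5 late erythroid, E18.5 monocyte, E18.5 specific-granule precursors, E18.5 B lineage, E18.5 megakaryocyte, E18.5 blood progenitor and E18.5 hepatocyte, 1 in E18.5 basophils or mast cells and E18.5 late erythroid, 2 in E18.5 early neutrophil precursors and erythroid stages with the heterozygous mother, 3 in E18.5 mature neutrophil, 6 in erythroid stages with the null mother, 8 in E18.5 early erythroid and 13 in neutrophil stages with the null mother. With the 5% of cells richest in UMIs left out, the summed ratio turned to the other side of 1, at 1.00 in E18.5 endothelium and 1.01 in E18.5 early neutrophil precursors. There the summed ratio was 0.945 in E14.5 epithelium, 0.900 in E14.5 mesenchyme, 1.20 in E14.5 endothelium, 1.36 in E18.5 macrophage, 1.08 in E18.5 B lineage, 0.771 in E18.5 early erythroid, 1.14 in E18.5 late erythroid and 0.939 in E18.5 hepatocyte. There members past the limit numbered 2 in E14.5 endothelium and E18.5 hepatocyte, 3 in E18.5 endothelium and E18.5 monocyte and 5 in E18.5 macrophage. With cells kept from 1000 genes up and below 10% mitochondrial share, the summed ratio turned to the other side of 1, at 0.740 in E18.5 late erythroid. There the summed ratio was 1.13 in E18.5 macrophage, 0.880 in E18.5 specific-granule precursors, 1.06 in E18.5 B lineage and 1.08 in E18.5 hepatocyte. There members past the limit numbered 2 in E14.5 endothelium and E18.5 endothelium, 13 in neutrophil stages with the heterozygous mother, 17 in erythroid stages with the heterozygous mother and 22 in E18.5 late erythroid. With haemoglobin and mitochondrial genes out of the totals, the summed ratio turned to the other side of 1, at 0.864 in E18.5 late erythroid. There the summed ratio was 1.43 in E14.5 late erythroid, 1.34 in E18.5 macrophage, 1.08 in E18.5 B lineage and 0.771 in E18.5 early erythroid. There members past the limit numbered 1 in E18.5 endothelium, 2 in E14.5 late erythroid, 6 in E18.5 macrophage, 25 in erythroid stages with the null mother and 28 in erythroid stages with the heterozygous mother. With a gate of 4 markers, the summed ratio was 1.06 in E18.5 late erythroid. There members past the limit numbered 0 in E14.5 late erythroid and 1 in E18.5 endothelium and E18.5 blood progenitor. With a gate of 2 markers, members past the limit numbered 0 in E14.5 late erythroid.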
